A study of Homo sapiens with 6 samples.

Results

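The zinc finger gene families of a STYK1 knockdown experiment in PANC-1 cells were described gene by gene. PANC-1 is an established human pancreatic ductal carcinoma line, and STYK1 encodes a receptor-like protein kinase. Members were the genes of the deposited table whose symbol begins with ZNF or ZFP and a number, or with ZSCAN, ZKSCAN, ZBTB, ZIK, ZIM or PRDM, without antisense and divergent transcripts. This gave 26 genes of 995, of which 12 lie on chromosome 19 and 14 on other chromosomes. By symbol there were 25 ZNF genes and 1 PRDM gene, and no gene of the other 6 name families was among the 995.

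Poly(A)-selected RNA was sequenced from 3 control and 3 shSTYK1 libraries. The shSTYK1 cells stably carried a short hairpin RNA against STYK1 from a lentiviral pLKO.1-puro vector and had been selected for drug resistance. No other treatment is named for either group. According to the study's methods, resistant clones were isolated and expanded. Whether the sequenced cells of a group came from a single clone is not given in the sources used here, nor are the hairpin sequenced and the insert of the control vector. There was 1 knockdown group, so a difference between clones and an effect of the hairpin cannot be told apart. The deposited values are z-scores of genes that the authors had selected, and STYK1 itself is not among them, so its level could not be checked here. The expression value behind each z-score was recovered by a whole-number search and is called the value below. Its unit and the depth of the libraries are unknown, so levels were compared between libraries and not between genes. Because the table was selected on the same contrast, nearly every gene in it differs between the groups: in 93.7% of the 995 genes the 3 control and the 3 shSTYK1 values did not overlap. Counts of members that differ therefore describe the table and are not evidence about zinc finger genes as a class. The p-values below were computed on these selected genes, so they do not control the share of false calls and serve as description.

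C2H2 zinc finger proteins carry repeated fingers, each folded around a zinc ion by a pair of cysteines and a pair of histidines, and most of them bind DNA. In a large subfamily the fingers follow a KRAB domain, which recruits the corepressor TRIM28 and the histone methyltransferase SETDB1 and silences chromatin, among other places at transposable elements. Genes of this subfamily arose by repeated tandem duplication, and many stand in clusters on human chromosome 19, where neighbours are often near copies of each other.

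The 12 members on chromosome 19 fell into a group of 6 neighbours and 6 genes outside it. With starts at most 1 Mb apart, ZNF253, ZNF682, ZNF90, ZNF486, ZNF737 and ZNF626 formed the group at chr19:19865886-20661596 (GRCh38), a stretch of 0.796 Mb, and all 6 had lower values in the shSTYK1 libraries. The group held the same 6 genes when the distance was set to 0.5 or 2 Mb. RefSeq promoters (GRCh38.p14) were matched for 20 of the 26 members and for 5 of this group. The 150 bases before the gene start are printed for these 5 and for ZNF93, a zinc finger gene between ZNF253 and ZNF682 that is not in the table, because they show how alike the upstream sequences of the group are. They read 5′ to 3′ on the gene's own strand, and capitals mark TCCAATCA, an extended form of the CCAAT box, a common promoter element. The stretches lie at chr19:19900796-19900945 (plus strand), chr19:20039506-20039655 (minus strand), chr19:20077850-20077999 (plus strand), chr19:20167064-20167213 (plus strand), chr19:20565782-20565931 (minus strand) and chr19:20661572-20661721 (minus strand).
ZNF93: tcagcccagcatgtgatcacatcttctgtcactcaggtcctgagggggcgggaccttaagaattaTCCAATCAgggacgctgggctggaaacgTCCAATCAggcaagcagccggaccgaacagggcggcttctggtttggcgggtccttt
ZNF682: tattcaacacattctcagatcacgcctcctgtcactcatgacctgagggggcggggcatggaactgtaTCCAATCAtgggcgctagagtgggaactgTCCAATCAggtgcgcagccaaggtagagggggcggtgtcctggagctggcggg
ZNF90: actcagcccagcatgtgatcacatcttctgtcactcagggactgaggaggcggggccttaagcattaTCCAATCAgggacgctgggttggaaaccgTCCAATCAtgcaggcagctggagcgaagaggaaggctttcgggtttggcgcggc
ZNF486: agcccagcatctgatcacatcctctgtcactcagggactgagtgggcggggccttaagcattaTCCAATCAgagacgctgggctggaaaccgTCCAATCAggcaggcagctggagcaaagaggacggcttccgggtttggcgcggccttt
ZNF737: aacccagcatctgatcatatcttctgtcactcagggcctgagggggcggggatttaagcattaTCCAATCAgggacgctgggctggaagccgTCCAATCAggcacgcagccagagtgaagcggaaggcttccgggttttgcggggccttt
ZNF626: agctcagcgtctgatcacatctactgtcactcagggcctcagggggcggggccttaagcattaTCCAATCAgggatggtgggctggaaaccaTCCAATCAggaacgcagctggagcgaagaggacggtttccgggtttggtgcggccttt

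TCCAATCA was searched on both strands of the 300-base windows, 250 bases before and 50 after the start, and it contains CCAAT. All 5 promoters of the group held it 2 times, with the first box beginning 82 to 87 bases and the second 53 to 58 bases before the start, 29 bases apart. Where RefSeq lists several promoters for a gene, the one listed first was counted. Among the other 15 members with a promoter, 1 held it, and none held it 2 times, although a second promoter of ZNF503 held it 2 times. A second promoter of ZNF682 held none. Over all 35116 RefSeq promoter windows, 1.543% held it at least 1 time and 0.225% at least 2 times. The pattern was not particular to the genes of the table. Between ZNF253 and LINC01224, an end chosen after the values were seen, 18 coding zinc finger genes that are not in the table had a matched promoter. All 18 held the box and 8 (44.4%) held it 2 times. Over the rest of chromosome 19 it was present in 30 of 206 such genes, and 2 or more times in 6 of them (2.91%). These 30 include ZNF675, ZNF681, ZNF726 and ZNF254, which lie directly beyond LINC01224, and ZNF675 and ZNF726 are among the 6. Aligned end to end, the windows of ZNF90, ZNF486, ZNF737 and ZNF626 were 80.6% to 87.5% identical to each other, and ZNF682 was 64.5% to 66.8% identical to them. ZNF93, outside the table, was 67.3% to 87.1% identical to the 5. ZNF829, a member elsewhere on the chromosome, aligned with 168 to 177 identical bases to the 5 windows, against 206 to 209 between ZNF682 and the other 4.

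The other motifs were searched on both strands as well. GGGCGG was present in 4 of the 5 promoters of the group (44.954% of all windows), CCGGAA in 3 (17.249%) and TATAAA in none (11.53%). The 5 windows held 8 to 10 CpG dinucleotides each, and those of ZNF426, ZNF793 and ZNF829, the other chromosome 19 members with a promoter, held 16 to 27. ZNF253, ZNF469, ZNF618, ZNF788P, ZNF223 and ZNF649 were not matched. A match of letters is a description of the window and shows no binding.

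**Figure D1:**
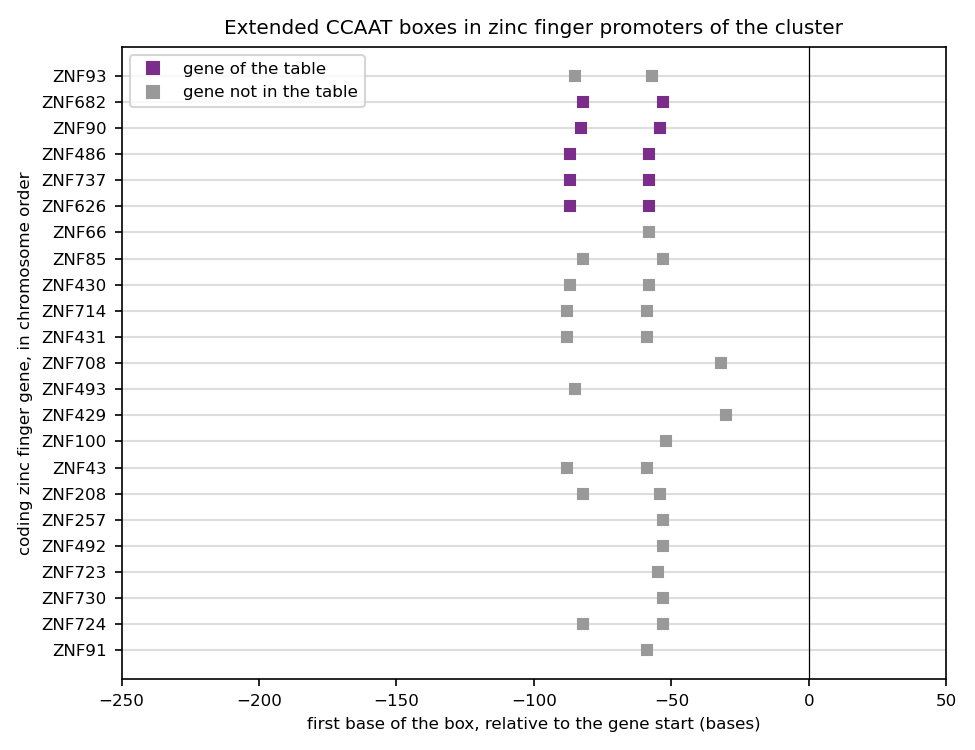
Positions of the TCCAATCA box in the promoters of coding zinc finger genes from ZNF253 to LINC01224 on chromosome 19, in chromosome order (y axis), as the first base of the box relative to the gene start in bases (x axis). Each square is 1 box, purple for genes of the table and grey for genes not in it. The 5 genes of the table each have 2 boxes, and so do 8 of the 18 genes not in the table.

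Of the 26 members, 14 had a lower and 12 a higher mean in the shSTYK1 libraries (53.8% lower, against 50.2% of all 995 genes). The groups did not overlap in 22 members, 14 lower and 8 higher, beside 93.7% of the whole table. Genes were tested with limma on log2(value + 1) if 3 or more libraries reached a value of 1. This filter kept 740 genes, and p-values were adjusted over all of them by the Benjamini-Hochberg method. Of the members, 16 passed this filter, and 10 did not, 8 with lower and 2 with higher values. Since 3 of the 16 (ZNF90, ZNF711 and ZNF793) reached 1 in all control and no shSTYK1 library and 1 (ZNF19) in all shSTYK1 and no control library, the filter itself favours genes that differ, and the 16 do not stand for all members. Of the 16, 6 were called lower and 8 higher at an adjusted p-value under 0.05, where 44.5% of the 740 genes were called lower and 51.2% higher (95.7% in either direction). The median difference over the 16 was 0.52 on the log2 scale, and 0.54 over all 740. In the fit without the filter, 13 members were called lower and 10 higher, beside 46.3% and 45.8% of 994 genes (92.1% in either direction), and the median difference was -0.45, against -0.10 for all genes. On the deposited z-scores themselves limma called 24 members, 14 lower and 10 higher, beside 95.4% of the 995 genes. The 14 members with lower values had a median difference of -0.83, against -0.98 for all such genes of the table, and the 12 with higher values 0.65, against 0.88.

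**Figure D2:**
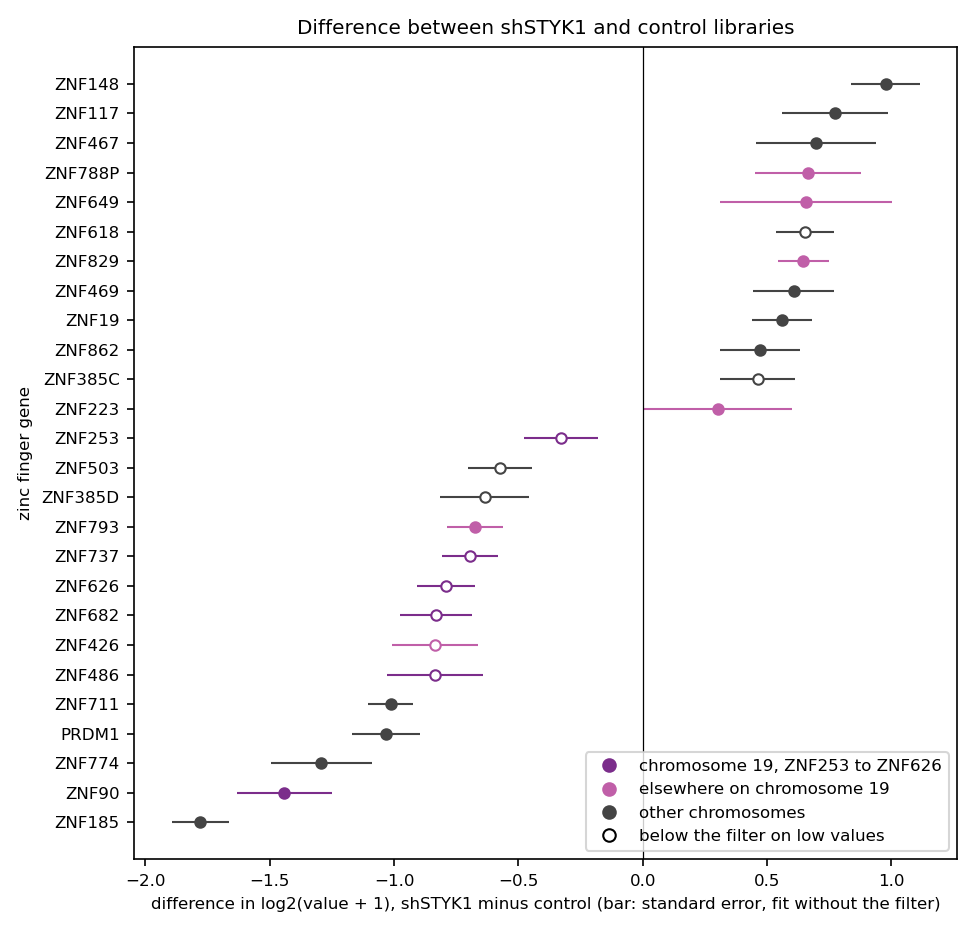
Difference in log2(value + 1), shSTYK1 minus control, for the 26 members (x axis), ordered by size (y axis), with bars of 1 standard error from the limma fit without the filter. Purple marks the group from ZNF253 to ZNF626, pink the other members on chromosome 19 and dark grey those on other chromosomes; open circles are the 10 members below the filter. All 6 purple points lie below 0, and the other chromosomes hold both ends of the range, ZNF185 at -1.78 and ZNF148 at 0.98.

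The scaling of the libraries bore on the higher members. When the libraries were rescaled by the median of ratios, the median difference of all 740 genes went from 0.54 to 0.30. All 6 members called lower were still called, and 3 of the 8 called higher (ZNF148, ZNF829 and ZNF469), so that the split of lower to higher calls changed from 6 and 8 to 6 and 3. Over all 740 genes it changed from 329 and 379 to 333 and 326. ZNF19, ZNF117, ZNF467, ZNF788P and ZNF862 were no longer called, with adjusted p-values of 0.0629 to 0.340. In bulk RNA, fewer cells that express a gene and less of its RNA per cell cannot be told apart.

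On chromosome 19, 8 members had lower and 4 higher values, and the groups did not overlap in 9 of the 12, beside 50 of all 58 table genes on this chromosome and 93.7% of the 995 genes. The other 46 genes of the table on this chromosome were split 23 to 23. Elsewhere, 6 members had lower and 8 higher values. The group from ZNF253 to ZNF626 held 6 of the 8 lower members of the chromosome.

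ZNF90 was the member of the group that passed the filter. It did so through its 3 control libraries alone, so the filter had selected it on the difference that was then tested. Without the filter its adjusted p-value was 0.000424 (limma). Its values were 1.63, 1.11 and 2.61 in control libraries 1 to 3, and it was listed at 0 in all 3 shSTYK1 libraries (difference -1.44 ± 0.19 on the log2(value + 1) scale, standard error, adjusted p = 0.000239, limma). The groups did not overlap, and no fold can be given against a group listed at 0. Of the 33 genes of the table listed at 0 in all 3 shSTYK1 libraries, ZNF90 was the only member. ZNF486, its neighbour on the same strand, had 0.77, 0.38 and 1.38 in the control and 0, 0 and 0.02 in the shSTYK1 libraries. All 3 control libraries were above every shSTYK1 library (difference -0.84, adjusted p = 0.00481, limma without the filter). ZNF682 had control values of 0.88, 1.13 and 0.49 and shSTYK1 values of 0.05, 0 and 0.01 (-0.83, adjusted p = 0.00139, limma without the filter). Control library 3 was the lowest control library here, while it was the highest for ZNF90 and ZNF486.

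ZNF737 had 0.86, 0.67 and 0.56 in the control and 0.12, 0 and 0.02 in the shSTYK1 libraries (-0.69, adjusted p = 0.000948, limma without the filter). ZNF626 had 0.81, 0.63 and 1.05 in the control and 0.01, 0.07 and 0.08 in the shSTYK1 libraries (-0.79, adjusted p = 0.000663, limma without the filter). In both genes all 3 control values were above all 3 shSTYK1 values. ZNF253, at the start of the group, had 0.17, 0.14 and 0.59 in the control and 0.07, 0 and 0 in the shSTYK1 libraries, without overlap, but did not pass the test without the filter either (-0.33, adjusted p = 0.0656, limma). On the deposited z-scores it was called lower (adjusted p = 0.0358, limma). Over the 6 genes, control values ran from 0.14 to 2.61 with none at 0, and shSTYK1 values from 0 to 0.12 with 9 of 18 at 0. The depth that would set the counting error of these values is not known.

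**Figure D3:**
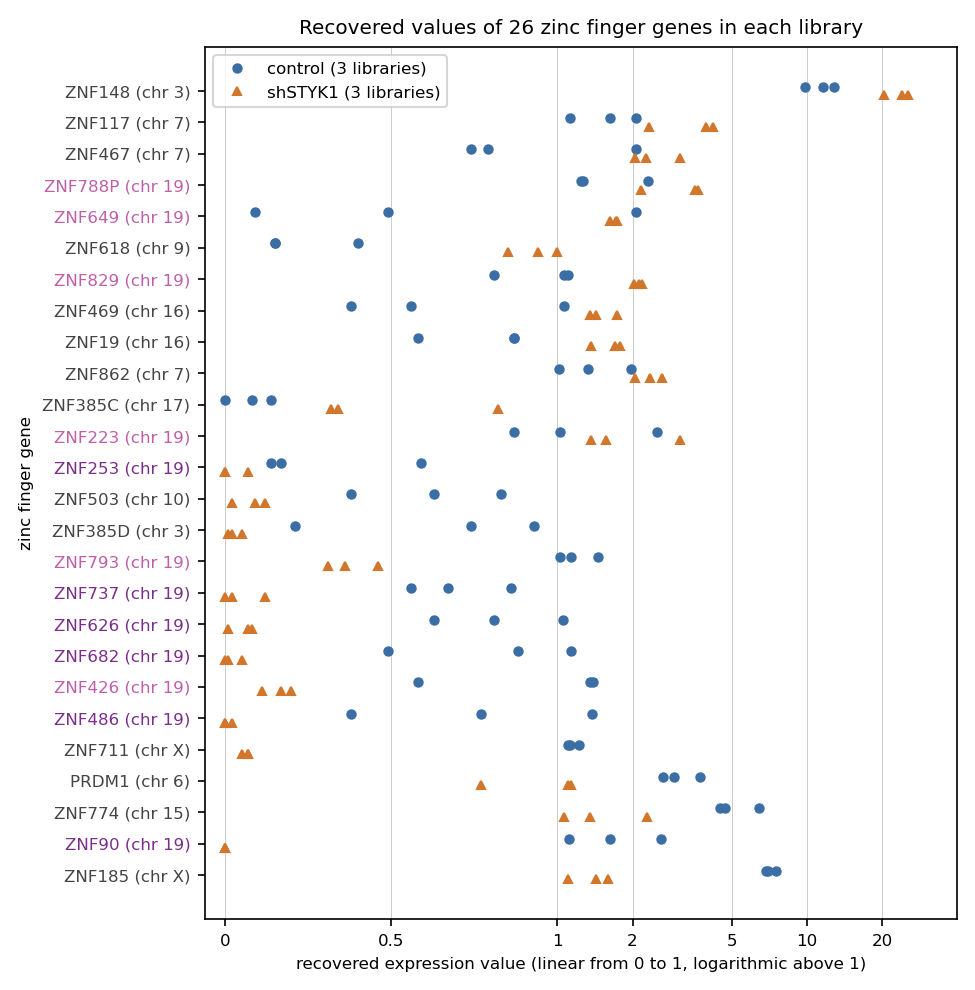
Value of each of the 26 members (y axis, with its chromosome) in each library (x axis, linear from 0 to 1 and logarithmic above 1), with control libraries as blue circles and shSTYK1 libraries as orange triangles. Purple names mark the group from ZNF253 to ZNF626 and pink names the other members on chromosome 19. In the purple rows all 18 orange triangles lie between 0 and 0.12, left of every blue circle of the same row.

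The genes around the group were read for direction as well. GENCODE 29 lists 7 coding genes of these name families from ZNF253 to ZNF626, and 6 of them (85.7%) were in the table, with ZNF93 as the exception. This share follows in part from the ends of the window, which are the outermost members of the group, and the nearest such genes on either side (ZNF101, ZNF14 and ZNF506 before it, ZNF66, ZNF85 and ZNF430 after it) were not in the table. In the rest of chromosome 19, 5 of 262 (1.91%) were in the table, on other chromosomes 14 of 360 (3.89%), and in all 25 of 629 (3.98%). Reading on to LINC01224, an end chosen after the values were seen, the stretch of 3.55 Mb held 10 genes of the table, the 6 members and 4 others. All 10 had lower values in the shSTYK1 libraries without overlap, as did 48.1% of all 995 genes, and 6 of the 30 coding zinc finger genes of the stretch were in the table. None of the 4 others is annotated as protein-coding in GENCODE 29. ENSG00000268119 had 5.03, 4.52 and 7.39 in the control and 1.43, 1.09 and 1.17 in the shSTYK1 libraries (-1.55, adjusted p = 0.000118, limma). LINC01224, a long noncoding RNA, had 4.04, 4.84 and 4.09 against 1.51, 2.01 and 0.87 (-1.14, adjusted p = 0.000620, limma). LINC00664, also a long noncoding RNA, had 0.64, 0.50 and 0.58 against 0.04, 0.08 and 0.07 (-0.56, adjusted p = 0.00109, limma without the filter). ENSG00000280079 had 0.68, 0.35 and 0.99 in the control and was listed at 0 in every shSTYK1 library.

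The nearest genes of the table outside this stretch did not have lower values. GDF15, a stress-induced secreted factor of the TGF-beta superfamily at chr19:18374731-18389176, had 102.58, 122.68 and 82.83 in the control and 251.92, 330.71 and 251.19 in the shSTYK1 libraries (1.43, adjusted p = 0.000196, limma). TMEM59L (chr19:18607430-18621039) overlapped between the groups and was not called (0.26, adjusted p = 0.429, limma). On the far side the next gene of the table, ENSG00000273420 (chr19:33207129-33207639), was called higher (1.76, adjusted p = 0.00161, limma).

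**Figure D4:**
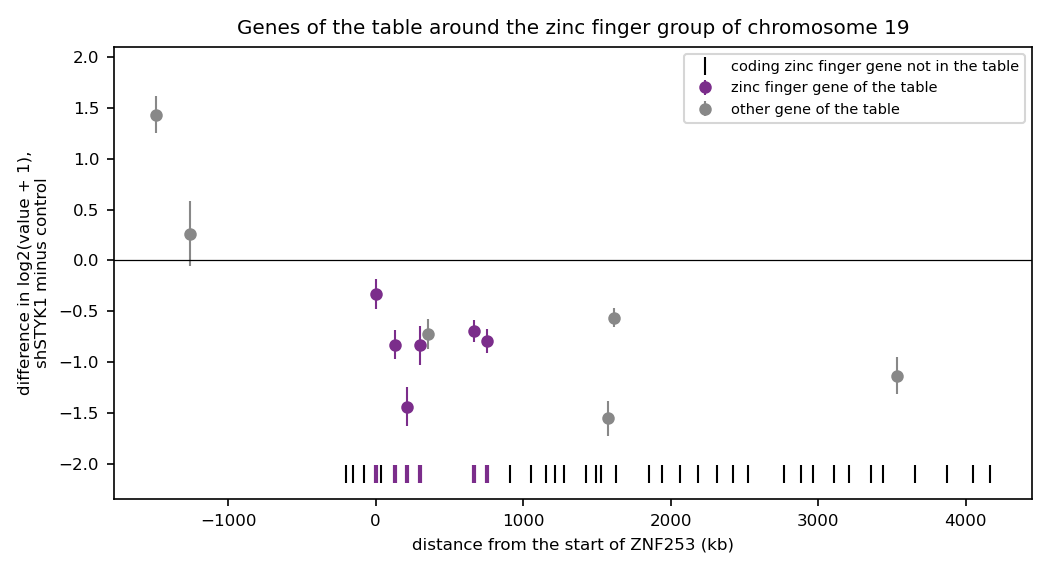
Difference in log2(value + 1), shSTYK1 minus control (y axis, bars of 1 standard error from the fit without the filter), of table genes against the distance of their start from that of ZNF253 in kb (x axis). Purple points are zinc finger members and grey points other genes, and ticks at the bottom mark coding zinc finger genes, purple in the table and black not in it. The 10 points from ZNF253 to LINC01224 lie below 0, from -0.33 to -1.55, and the 2 points before ZNF253 above it.

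The 6 other members of chromosome 19 lay outside this group. ZNF793 and ZNF829, less than 1 Mb apart in another zinc finger cluster, changed in opposite directions. ZNF829 (chr19:36888124-36916291) had 1.06, 0.81 and 1.10 in the control and 2.02, 2.12 and 2.18 in the shSTYK1 libraries, and all shSTYK1 libraries were above all control libraries (0.65 ± 0.12, adjusted p = 0.00113, limma). ZNF793 (chr19:37506939-37548762) had 1.46, 1.02 and 1.13 in the control and 0.36, 0.46 and 0.31 in the shSTYK1 libraries, again without overlap (-0.67 ± 0.13, adjusted p = 0.00128, limma). ZNF793 passed the filter through its control libraries alone, so the filter had selected it on this difference. ZNF426 (chr19:9523224-9538645) was also lower, with 1.35, 1.39 and 0.58 against 0.11, 0.17 and 0.20 (-0.84, adjusted p = 0.00305, limma without the filter).

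In the other 3 genes of this chromosome the groups overlapped. ZNF788P, a transcribed pseudogene, had 2.31, 1.27 and 1.24 in the control and 3.65, 2.16 and 3.56 in the shSTYK1 libraries, and was called higher (0.66, adjusted p = 0.0167, limma), although shSTYK1 library 2 was below control library 1. The call ended without control library 2, control library 3, shSTYK1 library 1 or shSTYK1 library 3, with adjusted p-values up to 0.0611 (limma). ZNF649, a KRAB zinc finger gene, had control values of 0.49, 2.06 and 0.09 and shSTYK1 values of 1.62, 1.71 and 1.74, and was not called (0.66, adjusted p = 0.0893, limma). Without control library 2, which was above every shSTYK1 library, it was called (1.08, adjusted p = 0.00107, limma). ZNF223 was not called (0.30, adjusted p = 0.336, limma) and is uncertain in any case, because 42.3% of the 100-base words of its transcripts also occur in those of ENSG00000267022. That gene is in the table with lower values, 0.19, 0.29 and 0.48 in the control and 0, 0 and 0.08 in the shSTYK1 libraries, so reads of the shared part may have been counted for either.

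Outside chromosome 19, the 6 members with lower values did not overlap between the groups, as was so for 93.7% of the 995 genes. Of these 6, 4 passed the filter and were called, beside 44.5% of all tested genes called lower. ZNF185 (chrX:152914442-152973480) encodes an actin-associated protein with a LIM domain and no C2H2 finger, so it belongs to the members by its symbol alone. It had 7.53, 6.99 and 6.86 in the control and 1.43, 1.10 and 1.59 in the shSTYK1 libraries. This was the largest difference among the members on the log2(value + 1) scale, though not by the ratio of means or with a pseudocount of 0.1. It was 5.19-fold lower by the means of 7.13 ± 0.36 and 1.37 ± 0.25 (SD, n = 3 each; -1.78 ± 0.13, adjusted p = 1.77e-05, limma). ZNF774 (chr15:90352245-90369146) had 6.43, 4.71 and 4.50 in the control and 1.06, 2.28 and 1.35 in the shSTYK1 libraries, 3.33-fold lower (-1.29 ± 0.20, adjusted p = 0.000526, limma).

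PRDM1 (chr6:106086320-106109939), which encodes the repressor Blimp-1 of plasma cell and epithelial differentiation, was the only gene of the table with a PRDM symbol. Its values were 2.65, 3.74 and 2.92 in the control and 0.77, 1.13 and 1.10 in the shSTYK1 libraries, a 3.10-fold lower mean (-1.03 ± 0.15, adjusted p = 0.000324, limma). ZNF711 (chrX:85244032-85273362), linked to intellectual disability when mutated, had 1.22, 1.10 and 1.12 in the control and 0.05, 0.07 and 0.07 in the shSTYK1 libraries. The 3 libraries of each group lay close together, and the mean was 18.1-fold lower (-1.01 ± 0.11, adjusted p = 9.86e-05, limma). This fold rests on shSTYK1 values of 0.05 to 0.07, recovered to 2 decimals, and on the scale taken for value + 1. ZNF711 passed the filter through its control libraries alone, so the filter had selected it on this difference. The other 2 lay below the filter. ZNF385D (chr3:21412222-22373321) had 0.74, 0.21 and 0.93 against 0.01, 0.02 and 0.05 (-0.64, adjusted p = 0.0112, limma without the filter), and ZNF503, a developmental repressor, had 0.63, 0.83 and 0.38 against 0.02, 0.12 and 0.09 (-0.57, adjusted p = 0.00424, limma without the filter).

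Of the 8 members with higher values outside chromosome 19, 7 did not overlap between the groups, beside 93.7% of the 995 genes. ZNF148 (chr3:125225561-125375354), whose protein binds GC-rich promoters, had the largest rise on the log2(value + 1) scale, though not by the ratio of means or with a pseudocount of 0.1. It had 11.61, 9.80 and 12.79 in the control and 24.16, 20.41 and 25.55 in the shSTYK1 libraries, 2.05-fold higher by the means of 11.4 ± 1.51 and 23.4 ± 2.66 (SD, n = 3 each; 0.98 ± 0.15, adjusted p = 0.000407, limma). With libraries scaled by the median of ratios, the difference was 0.59 (adjusted p = 0.0129), against a median of 0.30 over all genes tested.

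The other members of this kind that were called differed by less than ZNF148 in log2(value + 1). ZNF469, which is mutated in brittle cornea syndrome, had 0.56, 1.06 and 0.38 in the control and 1.35, 1.74 and 1.43 in the shSTYK1 libraries (0.61, adjusted p = 0.00885, limma). ZNF117, on chromosome 7, had 1.63, 1.12 and 2.07 against 4.20, 2.33 and 3.93 (0.77, adjusted p = 0.00795, limma), and it overlaps ERV3-1, the envelope gene of an endogenous retrovirus, on the same strand. ZNF19, on chromosome 16, had 0.87, 0.58 and 0.87 against 1.78, 1.70 and 1.36 (0.56, adjusted p = 0.00396, limma). ZNF19 passed the filter through its shSTYK1 libraries alone, so the filter had selected it on this difference. ZNF467 and ZNF862 lie within 1 Mb of each other on chromosome 7 and were both called higher. ZNF467 had 0.74, 2.07 and 0.79 in the control and 3.09, 2.26 and 2.05 in the shSTYK1 libraries, where control library 2 was above the lowest shSTYK1 library (0.70, adjusted p = 0.0213, limma). ZNF862 had 1.97, 1.01 and 1.32 against 2.05, 2.62 and 2.34 (0.47, adjusted p = 0.0256, limma).

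The calls of ZNF117, ZNF19, ZNF467 and ZNF862 ended under the median of ratios. That of ZNF467 also ended without control library 1, control library 3 or shSTYK1 library 1, and that of ZNF862 without control library 2, control library 3, shSTYK1 library 2 or shSTYK1 library 3, with adjusted p-values up to 0.0768 and 0.0802 (limma). ZNF618 and ZNF385C lay below the filter. ZNF618, on chromosome 9, had 0.15, 0.15 and 0.40 in the control and 0.94, 1.00 and 0.85 in the shSTYK1 libraries, with control library 3 the highest of the control libraries (0.65, adjusted p = 0.00152, limma without the filter). ZNF385C, on chromosome 17, had 0.08, 0.14 and 0 against 0.82, 0.34 and 0.32 (0.46, adjusted p = 0.0206, limma without the filter). It was 1 of the 13 genes whose recovered values were scaled up to avoid values below 0. Its 0 rests on that choice, but a common factor on value + 1 leaves its difference in log2(value + 1) unchanged. Its paralog ZNF385D had lower values, so the pair went in opposite directions.

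The proteins of the members were searched for a C2H2 finger pattern and for a KRAB pattern in coding sequences of GENCODE 29. Of the 25 coding members, 22 held the C2H2 pattern (4.359% of 19659 coding genes), and ZNF503, ZNF862 and ZNF185 did not. The KRAB pattern was found in 11 members (1.475% of coding genes). All 11 lie on chromosome 19, where 213 of the 290 genes with the pattern (73.4%) are found, and 8 of them had lower and 3 (ZNF829, ZNF223 and ZNF649) higher values. The 15 members without it were split into 6 lower and 9 higher. Since 1 fixed pattern was searched, some of these 15 may still encode a KRAB domain, and the splits describe the pattern only. The 6 proteins of the group from ZNF253 to ZNF626 all held the KRAB pattern and 9 to 16 fingers each. Their genes are 6 of the 8 lower ones with the pattern. Near-identical copies could split or share reads in such families. In 15 of the 26 members no 100-base word of the transcripts occurred in another gene, and in ZNF90, ZNF626 and ZNF19 6.69%, 3.91% and 7.17% did, mostly shared with overlapping transcripts. ZNF90 also shared 6 such words with RPS16 and 5 with ZNF486, another member of the group. Apart from ZNF223, no other member was above 1.63%.

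Related genes were read from lists. Of 39 genes of the KRAB silencing machinery, 1 was in the table: RBBP7, a histone-binding subunit of several deacetylase complexes, with 96.74, 96.45 and 102.30 in the control and 186.86, 180.19 and 191.08 in the shSTYK1 libraries (0.91, adjusted p = 0.000171, limma). TRIM28 and SETDB1 were not in the table, so no value can be given for them. Of 22 partners of BTB zinc finger repressors, 1 was in the table, TBL1X, a subunit of the NCoR corepressor complex, with 5.93, 6.44 and 4.29 against 12.63, 10.94 and 11.59 (0.97, adjusted p = 0.000594, limma). With median-of-ratios scaling both were still called, with differences of 0.51 and 0.61. RBBP7 and TBL1X lie on chromosome X, where the members ZNF185 and ZNF711 had lower values. A change shared by genes of that chromosome was not tested.

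Of 119 genes of C2H2 families with other names, 12 were in the table, 10 with lower and 2 with higher values. Of these, 7 passed the filter, and 4 were called lower and 2 higher, beside the 44.5% and 51.2% of all genes tested. HIVEP3, a large zinc finger protein, fell from 4.37, 2.80 and 4.51 to 1.38, 1.55 and 1.27 (-1.01, adjusted p = 0.000672, limma). SNAI1, a repressor of the epithelial programme, fell from 4.84, 9.05 and 4.44 to 2.36, 3.29 and 2.66 (-0.87, adjusted p = 0.00817, limma), and OSR2 and CASZ1 fell by 0.68 and 0.56. ZFX, an X-linked activator, rose from 11.62, 9.17 and 10.42 to 23.67, 18.25 and 20.33 (0.93, adjusted p = 0.000518, limma). YY2, a retrogene of the YY1 family that is also on chromosome X, rose by 0.66. GLI1, an effector of Hedgehog signalling, had 3.34, 1.88 and 1.89 in the control and 0.39, 1.05 and 6.77 in the shSTYK1 libraries, overlapped between the groups and was not called. GLIS1, GLI3, ZFHX4, MECOM and IKZF2 had lower values and lay below the filter.

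Of the lists of epithelial and mesenchymal markers used here, few genes were in the table, and other epithelial or matrix genes of the table were not counted. Of 12 epithelial markers 1 was in the table, CDH1, which encodes E-cadherin, with 0.10, 0.27 and 0.28 in the control and 0.94, 0.85 and 0.90 in the shSTYK1 libraries (0.64, adjusted p = 0.00101, limma without the filter). Keratin genes of the list were not in the table, so the labelled cell type could not be checked against them. Of 15 mesenchymal and fibroblast markers 2 were in the table. CDH2, which encodes N-cadherin, had 22.84, 23.12 and 24.81 against 2.98, 2.58 and 3.05 (-2.67, adjusted p = 2.89e-06, limma), and COL1A1, a chain of type I collagen, had 26.73, 42.24 and 22.24 against 3.12, 3.73 and 2.94 (-2.83, adjusted p = 2.61e-05, limma). Their values were also summed, which assumes that both genes were recovered on the same scale. The sums were 49.57, 65.36 and 47.05 in the control and 6.10, 6.31 and 5.99 in the shSTYK1 libraries. These 3 genes do not stand for their lists. Their part in the differences of the zinc finger genes was not tested.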

How the data were processed

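RNA-seq of 3 control and 3 shSTYK1 PANC-1 libraries was analysed, with groups from the sample labels and 3 biological replicates per group according to the study's methods. The authors deposited a score for each of 995 genes and library, a z-score with mean 0 and SD 1 over the 6 libraries, to 12 significant digits. The submitters' processing notes name RSEM, DESeq2 and the build GRCh38 (hg38), with no role, version or unit. Depth is unknown, so no counting interval or detection limit was computed.

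In Python 3.11.15 (numpy 2.4.6, numba 0.67.0, pandas 2.3.3, biopython 1.88), each gene's 6 z-scores were searched for the smallest values with 2 decimals, value + 1 at most 2000, whose log(value + 1) gives them. Values were recovered for 994 genes, all members included. In 13 genes the smallest solution was scaled up to avoid values below 0, and in 120 the lowest library was exactly 0. Recomputed z-scores matched to within 5e-12. That the authors took log(value + 1) is inferred from these solutions. A filter across genes, a value of 0 and a fold of means rest on taking the smallest solution. Control and shSTYK1 were compared with limma 3.58.1 (R 4.3.3, lmFit and eBayes, two-sided) on log2(value + 1) of the 740 genes that reached 1 in 3 or more libraries. P-values were adjusted by the Benjamini-Hochberg method, with a threshold of 0.05. Both the variance estimate shared between genes and this adjustment used genes already selected on the same contrast. The adjusted p-values therefore do not control the false discovery rate. An exact permutation test of 3 against 3 cannot go below 0.1. No set test was run.

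Symbols came from an Ensembl identifier table (990 matched, 923 with a symbol), positions from GENCODE 29 (965 located), promoters from RefSeq (GRCh38.p14, 300 bases). C2H2 and KRAB patterns were counted in GENCODE 29 coding sequences translated here, and no protein sequence is printed. Shared sequence was counted as 100-base words of the transcripts. Plots used matplotlib 3.10.9. The members, the lists and the tests were chosen with earlier results of these data known. The text names every member, by a rule that takes those called without overlap, those in chromosome 19 groups and those of the lists, and the remaining members after their values were seen. Alternatives were a pseudocount of 0.1, no filter, a filter of at least 5, quantile normalization, the median of ratios, leaving out any 1 library, the replicate number as a block, eBayes with a trend, the deposited z-scores, other neighbour distances and a minimum mean value. The filter was not recomputed when libraries were rescaled or when 1 library was left out.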

Additional observations from a re-analysis of the deposited data

How the results depend on the processing

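The 6 members called lower stayed 6 under a pseudocount of 0.1, median of ratios, quantile normalization, eBayes with a trend, and without any 1 library. They became 13 without the filter, 1 (of 2 members tested) with a filter of at least 5, and 14 on the deposited z-scores, where fewer or more genes are tested by construction. The fits without 1 library kept the genes that had passed the filter on all 6 libraries. ZNF90, ZNF711 and ZNF793 passed it through the control libraries alone. A filter recomputed without a control library would have left these genes untested, so their stability there was not tested by a new filter. The 8 called higher became 1 with the filter of at least 5 and 3 by the median of ratios, and ranged from 5 (without control library 3) to 7 without 1 library. On chromosome 19 the 2 called lower became 7 without the filter, 0 of 0 tested with the filter of at least 5, and 8 on the z-scores. They stayed 2 without 1 library, but both (ZNF90 and ZNF793) passed the filter through the control libraries alone. With a filter recomputed without a control library, neither would have been tested. The 2 called higher became 0 with the filter of at least 5, 1 by the median of ratios, and 1 to 2 without 1 library (1 without control library 3, shSTYK1 library 1 or shSTYK1 library 3). On other chromosomes the 4 called lower became 1 with that filter and the 6 called higher became 1, or 2 by the median of ratios, and 4 to 5 without 1 library. Over all genes tested, 329 lower and 379 higher calls became 130 and 194 (of 327) with that filter, 333 and 326 by the median of ratios, 460 and 455 (of 994) without the filter, 484 and 465 (of 995) on the z-scores, and 324 to 328 and 365 to 378 without 1 library. The median difference of the members, 0.52, became 0.82 with a pseudocount of 0.1, -0.45 without the filter, -0.40 with the filter of at least 5, 0.27 by the median of ratios, 0.69 after quantile normalization, and 0.39 (without control library 3) to 0.56 without 1 library; the cause was not tested. The 22 members without overlap became 9 among the 13 with a mean value of at least 1, where 648 of the 687 table genes with such a mean did not overlap. The largest chromosome 19 group held 6 members at every distance.

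The replicate numbers did not pair the libraries: same-numbered control and shSTYK1 libraries correlated at -0.22, 0.19 and 0.048 in their deviations from the group means. With the replicate number as a block, the calls were 6 lower and 9 higher among the members, 2 and 3 on chromosome 19, 4 and 6 elsewhere, 329 and 385 over all genes, and the median difference was 0.52. The added call was ZNF649 (0.66, adjusted p = 0.0485, limma). ZNF649 was also called after quantile normalization (0.85, adjusted p = 0.0350). The call of ZNF467 ended without control library 1, control library 3 or shSTYK1 library 1 (adjusted p up to 0.0768), that of ZNF788P without control library 2, control library 3, shSTYK1 library 1 or shSTYK1 library 3 (up to 0.0611), and that of ZNF862 without control library 2, control library 3, shSTYK1 library 2 or shSTYK1 library 3 (up to 0.0802). Of the 16 members that passed the filter, none changed its direction under the alternatives in which it was tested. For the 10 below the filter, values were computed without the filter and on the z-scores only, so the other settings were not tested on them.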
